A study of Homo sapiens with 6 samples.

Results

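T24 cells that received the siRNA si-circ235-1 were compared with T24 cells that received a control siRNA, called NC. The comparison was chosen by the sample labels and concerned 4 of the 6 libraries of the series, 2 for NC and 2 for si-circ235-1. The test itself was fitted to all 6 libraries. T24 is an established human bladder cancer line. The siRNAs were introduced by transient transfection with a Lipofectamine reagent, and both si-circ235-1 and the second siRNA of the series, si-circ235-2, were directed at the looping site of circ_0000235 (circ235). The labels name no stable knockout or transgene, and they describe the libraries of a group as biological replicates of 1 cell line. RNA was selected with oligo dT and sequenced without strand information. The study followed the transcripts downstream of circ235, and the comparison describes which genes differed in level and how well the replicates matched.

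Circular RNAs form when the end of a downstream exon is joined to the start of an upstream exon, so that the molecule has neither a cap nor a poly(A) tail. An siRNA can separate the circle from the linear mRNA of its host gene only at this junction, which the linear mRNA lacks. Circular RNAs in the cytoplasm have been studied as binding sites for microRNAs, short RNAs that lower target mRNAs through pairing of their seed, usually with the 3' UTR. Like all siRNAs, those against a junction can also pair in part with other mRNAs.

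The junction and the microRNA are shown because the siRNA was directed at the first and the study tied circ235 to the second. The junction sequence below was read from the GENCODE transcripts of CCNY, the cyclin Y gene, on the plus strand of GRCh38. Lower case marks the last 15 bases of exon 7 of transcript CCNY-203 (chr10:35530229-35530243), and capitals mark the first 15 bases of exon 4 (chr10:35516523-35516537). In the mature sequence of hsa-miR-330-5p, taken from RefSeq (GRCh38.p14, chr19:45639049-45639070, minus strand), capitals mark bases 2 to 8, the seed.
circ235 junction: gccatcgtcaccctgCATCCTCCAGGACAA
hsa-miR-330-5p: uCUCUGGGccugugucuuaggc
The circle of exons 4 to 7 would be 315 nucleotides long, made of exons of 101, 36, 58 and 120 nucleotides. Because it has no poly(A) tail, the counts hold no measurement of circ235 itself, and the position of si-circ235-1 on the junction was not looked up.

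The 4 libraries held 15588108 to 19912893 counts. Mitochondrial genes took 4.58% to 5.43% of the counts. Replicate 2 of si-circ235-1 was the deepest library and had counts for the fewest genes, 18021, against 18899 in replicate 1 and 19365 and 19777 in the NC libraries. The markers of T24 did not follow those of differentiated urothelium. The uroplakin gene UPK3A and the keratin gene KRT20 had 0 counts in all 4 libraries, as did 4 of 6 basal markers, KRT5, KRT14, KRT6A and DSG3, while the epithelial keratin genes KRT8, KRT18 and KRT7 and the mesenchymal gene VIM were abundant. The summed luminal markers lay at 45.1 to 53.9 CPM under NC and 63.6 to 65.2 CPM under si-circ235-1. The summed mesenchymal markers, almost all from VIM, lay at 749 to 796 and 1114 to 1393 CPM. Of the 4 mesenchymal markers, 3 had a positive log2 fold change and 1, FN1, a negative one, and none was called. PPARG, a nuclear receptor of luminal cells, was the only luminal marker called, on the higher side. The summed general epithelial markers lay at 4023 to 4947 CPM under NC and 3834 to 4212 CPM under si-circ235-1, and the basal markers, almost all from CD44, at 650.4 to 803 and 546 to 578 CPM. Endothelial markers summed to 0.505 to 0.641 and 1.09 to 2.41 CPM, and fibroblast markers to 0.466 to 0.820 and 0.954 to 1.54 CPM. Of the 6 leukocyte markers, 4 had 0 counts in all 4 libraries, among them PTPRC, CD3E and MS4A1.

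Of 14415 genes that passed the low-count filter, 847 (5.88%) differed between si-circ235-1 and NC at an adjusted p under 0.05. The test was the quasi-likelihood test of edgeR, its p-values were adjusted over all genes tested by the Benjamini-Hochberg method, and "called" refers to this threshold throughout. A total of 323 genes (2.24%) were higher under si-circ235-1 and 524 (3.64%) were lower. The median log2 fold change was 1.02 among the genes called higher and -1.17 among those called lower, against -0.03 over all genes tested. More than a 2-fold change was seen in 171 of the 323 and in 363 of the 524. The lowest adjusted p of any gene was 0.00586. In bulk RNA, a change in level per cell cannot be told apart from a change in the share of cells that express a gene.

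The number of called genes rested on single libraries. Without si-circ235-1 replicate 2, no gene was called by edgeR, although 2110 genes had an unadjusted p under 0.05. Without NC replicate 1, NC replicate 2 or si-circ235-1 replicate 1, the counts were 74, 134 and 423. In these fits the group that kept 1 library was assumed to vary like the others. DESeq2 called 1507 genes with all 6 libraries, and edgeR called 1642 with the NC and si-circ235-1 libraries alone. Without TMM scaling the split was 179 higher and 529 lower, and with the trends along GC content and length removed it was 1189 higher and 780 lower.

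**Figure D1:**
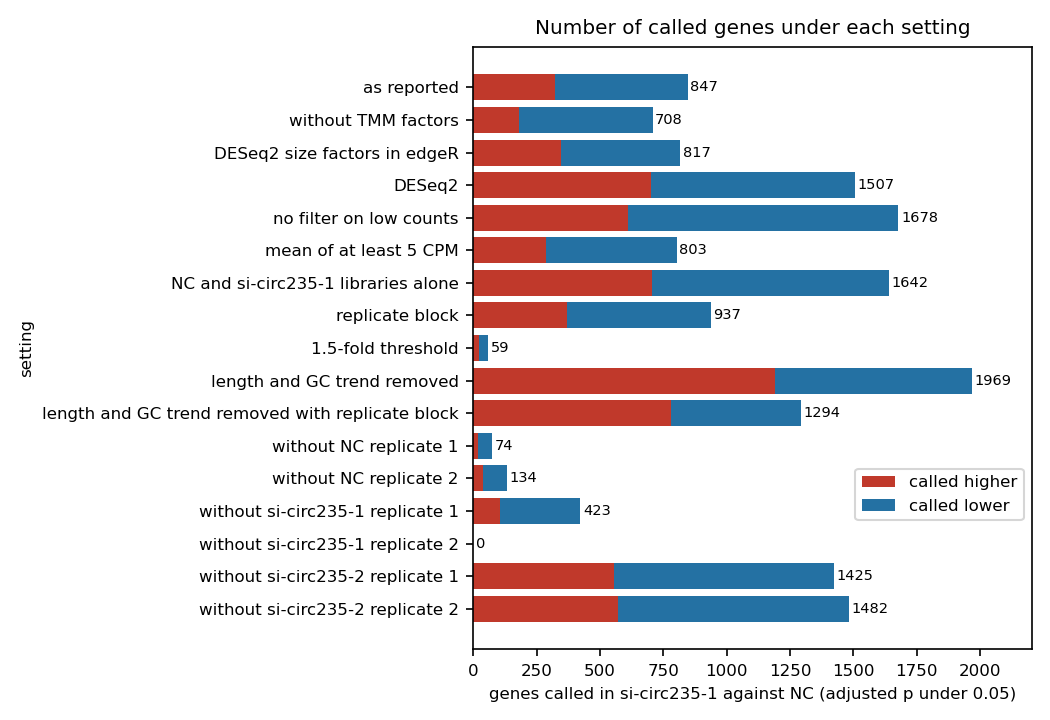
Number of genes called in si-circ235-1 against NC (x axis; red, higher; blue, lower) under each setting (y axis), the first bar being the fit used in the text. The count was 847 as reported, fell to 0 without si-circ235-1 replicate 2 and reached 1969 with the GC and length trends removed.

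The first gene examined was CCNY (ENSG00000108100.17, chr10:35247025-35572669, GRCh38), the host gene of circ235. Its level was 61.3 and 65.2 CPM in the NC libraries and 78.1 and 67.4 CPM in the si-circ235-1 libraries. Both si-circ235-1 libraries lay above both NC libraries, but by little, and the gene was not called (log2 fold change 0.2, SE 0.18, adjusted p = 0.533). This linear mRNA lacks the junction, so its level does not check the knockdown. Of the cyclin Y list, which holds CCNY and the kinases that cyclin Y can bind, 4 genes were tested and none was called. CDK14, a cyclin Y partner kinase, measured 0.394 and 0.856 CPM under NC and 2.1 and 2.07 CPM under si-circ235-1 (adjusted p = 0.0552), and CDK16 measured 309.9 and 272 CPM under NC and 489.7 and 417 CPM under si-circ235-1 (adjusted p = 0.0748).

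The study followed up SLC16A3, PAK4 and CPNE1, and by western blot it reported less protein of each after circ235 knockdown. The values here are mRNA levels. SLC16A3, which encodes the lactate exporter MCT4, measured 436 and 311 CPM in the NC libraries and 375 and 280.2 CPM in the si-circ235-1 libraries. The ranges of the groups overlapped, and SLC16A3 was not called (log2 fold change -0.19, SE 0.23, adjusted p = 0.656). CPNE1, a copine that binds membranes with calcium, measured 515 and 403 CPM in the NC libraries and 379.7 and 382 CPM in the si-circ235-1 libraries. Its si-circ235-1 values were both below its NC values but close to the lower one, and it was not called (log2 fold change -0.27, SE 0.21, adjusted p = 0.46). PAK4, an effector kinase of CDC42, measured 117 and 106 CPM in the NC libraries and 38.7 and 26.1 CPM in the si-circ235-1 libraries. Both si-circ235-1 values were far below both NC values, and PAK4 fell 3.45-fold (log2 fold change -1.79, SE 0.23, adjusted p = 0.00593).

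The 12 largest rises among called protein-coding genes with a mean of at least 5 CPM covered 3.51-fold to 5.90-fold changes. HIST1H2BC (current symbol H2BC4), a histone H2B gene, had the largest, with 5.25 and 2.38 CPM in the NC libraries and 22 and 23 CPM in the si-circ235-1 libraries. The NC replicates differed by more than the si-circ235-1 replicates, yet the groups were well apart (log2 fold change 2.56, SE 0.37, adjusted p = 0.00831). BIK, which encodes a BH3-only protein that promotes apoptosis, lay at 2.23 and 1.83 CPM in the NC libraries and 9.79 and 11.9 CPM in the si-circ235-1 libraries. Both si-circ235-1 values stood several times above the NC values (log2 fold change 2.41, SE 0.3, adjusted p = 0.00593). CERS6, a ceramide synthase gene (chr2:168455862-168775137), rose from 5.31 and 6.36 CPM under NC to 25.7 and 28.1 CPM under si-circ235-1 (log2 fold change 2.2, adjusted p = 0.00593).

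LCN2, the secreted siderophore-binding protein lipocalin 2 (chr9:128149071-128153455), measured 269 and 179.6 CPM in the NC libraries and 797 and 892 CPM in the si-circ235-1 libraries. Both si-circ235-1 libraries were well above both NC libraries, and LCN2 rose 3.76-fold (log2 fold change 1.91, SE 0.25, adjusted p = 0.00658). COL4A1, a collagen chain of basement membranes (chr13:110148963-110307233), measured 18.4 and 24.1 CPM in the NC libraries and 80.2 and 79.9 CPM in the si-circ235-1 libraries. Its si-circ235-1 values were nearly equal and its NC values much lower (log2 fold change 1.91, SE 0.2, adjusted p = 0.00586). CD14, a co-receptor for lipopolysaccharide, measured 2.82 and 2.87 CPM in the NC libraries and 11 and 9.94 CPM in the si-circ235-1 libraries (log2 fold change 1.87, adjusted p = 0.0104). CD14 was also the only leukocyte marker that passed the low-count filter, and CD68 did not exceed 3 counts in any of the 4 libraries.

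MAPK6, which encodes the atypical MAP kinase ERK3, rose from 12.1 and 14.1 CPM under NC to 46.8 and 56.3 CPM under si-circ235-1 (log2 fold change 1.98, adjusted p = 0.0131). CCL2, a chemokine for monocytes, rose from 4.79 and 4.28 CPM under NC to 14.3 and 17.5 CPM under si-circ235-1 (log2 fold change 1.81, adjusted p = 0.0127). SLC22A4, an organic cation transporter that carries ergothioneine, rose from 3.61 and 5.32 CPM under NC to 14.1 and 17.9 CPM under si-circ235-1 (log2 fold change 1.84, adjusted p = 0.0104). For the other 3, CCDC134, LONRF3 and UBR7, the NC values were all under 5 CPM and the si-circ235-1 values 11.7 CPM or more. Among the 12 rises, 6 were called in 5 of the 6 fits that left out 1 library (HIST1H2BC, BIK, CERS6, LONRF3, COL4A1 and LCN2), the exception being the fit without si-circ235-1 replicate 2.

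The 12 largest falls, by the same rule, covered 3.73-fold to 4.75-fold changes. NRBP2, a pseudokinase gene, measured 16.3 and 24 CPM in the NC libraries and 5.6 and 2.96 CPM in the si-circ235-1 libraries. The higher si-circ235-1 value was well below the lower NC value, and NRBP2 fell 4.75-fold (log2 fold change -2.25, SE 0.32, adjusted p = 0.00786). WASF2 (chr1:27404226-27490158) encodes WAVE2, which activates the Arp2/3 complex to nucleate actin. Its level was 83.8 and 102 CPM in the NC libraries and 28.6 and 16.1 CPM in the si-circ235-1 libraries, low in both si-circ235-1 libraries and lower in replicate 2 (log2 fold change -2.06, SE 0.26, adjusted p = 0.00593). WASF1, which encodes the related WAVE1, measured 10.3 and 17.8 CPM under NC and 3.92 and 3.52 CPM under si-circ235-1 (log2 fold change -1.92, adjusted p = 0.0116).

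PLP2, a small membrane proteolipid (chrX:49171926-49175239), measured 695 and 705 CPM in the NC libraries and 196 and 161 CPM in the si-circ235-1 libraries. The replicates of each group were close and the groups far apart (log2 fold change -1.97, SE 0.21, adjusted p = 0.00586). ARHGDIA, which holds small GTPases in their inactive form in the cytosol, measured 326 and 302 CPM under NC and 111 and 49.5 CPM under si-circ235-1 (log2 fold change -1.97, adjusted p = 0.0116). It lay low in both si-circ235-1 libraries, more so in replicate 2. PAX2, a paired-box transcription factor of kidney development, measured 74.2 and 70.5 CPM under NC and 22.9 and 15 CPM under si-circ235-1 (log2 fold change -1.94, adjusted p = 0.00593).

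KIF12, a kinesin gene, measured 33.9 and 22.9 CPM under NC and 7.06 and 5.81 CPM under si-circ235-1 (log2 fold change -2.14, adjusted p = 0.00636). FOXM1, a transcription factor for genes of G2 and mitosis, measured 34.4 and 58.2 CPM under NC and 16.6 and 7.54 CPM under si-circ235-1 (log2 fold change -1.95, adjusted p = 0.0151). ATF6B, a membrane-bound transcription factor of the endoplasmic reticulum, measured 15 and 30.7 CPM under NC and 7.69 and 4.02 CPM under si-circ235-1 (log2 fold change -1.97, adjusted p = 0.0174). In each of these 3 genes both si-circ235-1 values were below both NC values, but the NC values of FOXM1 and ATF6B were themselves far apart. MBD6, a protein of the methyl-CpG-binding domain family, measured 17.2 and 15.4 CPM under NC and 5.88 and 2.29 CPM under si-circ235-1 (log2 fold change -2.01, adjusted p = 0.0156). The remaining genes were PFDN6, a prefoldin subunit, and POM121, a nucleoporin.

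Some of these values are uncertain because the reads carry no strand or can be shared. PFDN6 overlaps 479 exonic bases of RGL2 on the other strand, FOXM1 651 bases of ITFG2, and CERS6 2686 bases of CERS6-AS1. Such overlaps of any length were found for 3 of the 12 rises and 6 of the 12 falls, and for SLC16A3 (336 bases of CSNK1D). POM121 has near-identical copies, and histone genes are a family of similar sequences.

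**Figure D2:**
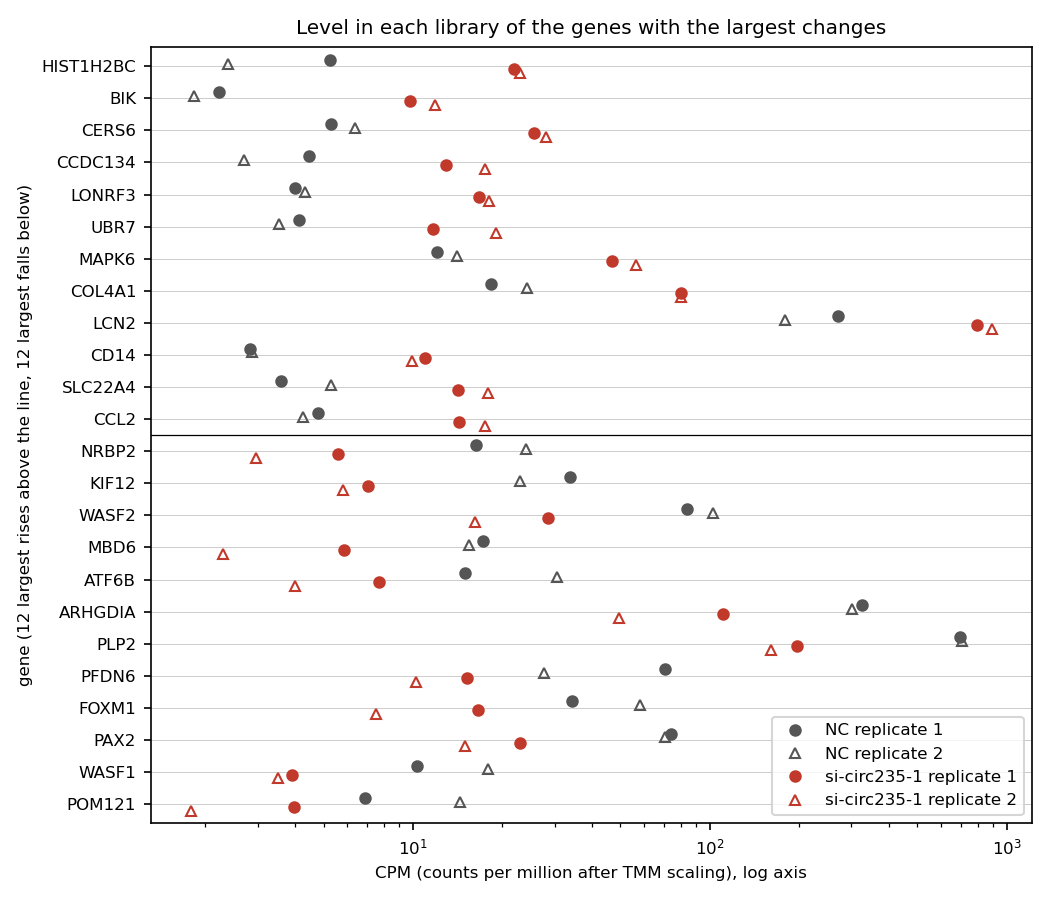
Level of the 12 largest rises (above the line) and the 12 largest falls (below) in each library, in CPM on a log axis, with NC in grey, si-circ235-1 in red, circles for replicate 1 and triangles for replicate 2. In every gene shown both si-circ235-1 libraries lie on 1 side of both NC libraries, as the rule for naming required, and the falls of ARHGDIA and MBD6 are larger in replicate 2.

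The called genes with the most counts were SOD2, MT1E, SARS and WDR1 on the higher side. SOD2, the manganese superoxide dismutase of mitochondria, measured 961 and 976 CPM under NC and 2143 and 2392 CPM under si-circ235-1 (log2 fold change 1.23, adjusted p = 0.0156), and it overlaps 205 exonic bases of WTAP on the other strand. SARS (current symbol SARS1), the cytosolic seryl-tRNA synthetase, measured 509 and 452 CPM under NC and 941 and 917 CPM under si-circ235-1 (log2 fold change 0.95, adjusted p = 0.0284). WDR1, a cofactor of actin filament disassembly, measured 420.5 and 408 CPM under NC and 715 and 708 CPM under si-circ235-1 (log2 fold change 0.78, adjusted p = 0.0414). In each of these 3 the si-circ235-1 values were close together and above both NC values. On the lower side they were CAPNS1, PADI2, FAM129B and PLP2. CAPNS1, the small subunit of calpain, measured 1412 and 1043 CPM under NC and 607 and 537 CPM under si-circ235-1 (log2 fold change -1.1, adjusted p = 0.0268). PADI2, a peptidylarginine deiminase, measured 1091 and 1020.1 CPM under NC and 586 and 532 CPM under si-circ235-1 (log2 fold change -0.92, adjusted p = 0.0309). FAM129B (current symbol NIBAN2) measured 1109.8 and 926 CPM under NC and 353 and 229.7 CPM under si-circ235-1 (log2 fold change -1.81, adjusted p = 0.00747), the widest separation of the 3.

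Of 1468 long noncoding genes tested, 7 (0.477%) were called higher and 44 (2.997%) lower, both shares below the 2.24% and 3.64% over all genes tested. Their median log2 fold change was -0.29, against -0.02 for 12192 protein-coding genes. The lincRNA genes AL365356.5 (current symbol LASTR), AL355512.1 (DUSP5-DT) and SFTA1P were the noncoding genes with the largest rises. AL355512.1 measured 2.23 and 1.65 CPM under NC and 6.65 and 10.3 CPM under si-circ235-1 (log2 fold change 2.13, adjusted p = 0.0132). The largest noncoding falls were those of Z95115.1 (TFIP11-DT), AC005229.4 and the pseudogene CDC20P1. Z95115.1 measured 3.8 and 3.54 CPM under NC and 0.490 and 0 CPM under si-circ235-1 (adjusted p = 0.0175). CDC20P1, whose reads can be shared with CDC20, measured 2.76 and 1.34 CPM under NC and 0.490 and 0.112 CPM under si-circ235-1 (adjusted p = 0.0473).

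Inflammatory and secreted factors were next examined by list. Over all genes tested 2.24% were called higher and 3.64% lower, and the counts of each list stand against these shares. Of 26 tested genes of the NF-kB pathway, chemokines and cytokines, 5 rose and none fell, against 2.24% called higher over all genes, with a median log2 fold change of 0.3 against -0.03 over all genes. The members called were CCL2, CXCL1, SOD2, CXCL2 and CCL20. CXCL1, a chemokine for neutrophils, measured 234 and 261 CPM in the NC libraries and 534 and 609 CPM in the si-circ235-1 libraries. Both si-circ235-1 values were more than double the NC values (log2 fold change 1.21, SE 0.2, adjusted p = 0.0119). CXCL2, its close relative, measured 54.2 and 55 CPM under NC and 104 and 119.8 CPM under si-circ235-1 (log2 fold change 1.04, adjusted p = 0.0173). The list's median stayed between 0.3 and 0.43 in the fits that left out 1 library.

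Interferon-stimulated genes, which double-stranded RNA can induce, included no called gene among 23 tested (median 0.13, -0.07 to 0.14 when single libraries were left out). ISG20, an interferon-induced exonuclease, had the lowest p, with 11.7 and 7.7 CPM under NC and 14.7 and 16 CPM under si-circ235-1 (adjusted p = 0.152). Of 14 genes of MHC class I antigen presentation, TAPBP, the peptide-loading protein tapasin, fell from 14.8 and 21.1 CPM under NC to 8.74 and 4.8 CPM under si-circ235-1 (log2 fold change -1.41, adjusted p = 0.0273). Of 7 metallothionein and zinc response genes, MT1E alone was called, with 823 and 623 CPM in the NC libraries and 1688 and 2233 CPM in the si-circ235-1 libraries (log2 fold change 1.44, SE 0.24, adjusted p = 0.0131). Its si-circ235-1 values were both above its NC values, and the list had a median of 0.73. Metallothionein genes are similar in sequence, so reads may be split between them.

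Matrix and adhesion genes followed. Of 29 tested collagens, laminins and other matrix genes, 2 rose and 2 fell, against 2.24% called higher and 3.64% called lower over all genes (median 0.19, 0.01 to 0.19 when single libraries were left out). COL4A1 and LAMC1 rose, and TNC was among those that fell. LAMC1, the laminin gamma 1 chain, measured 62 and 75.8 CPM under NC and 149 and 128 CPM under si-circ235-1 (log2 fold change 1.01, adjusted p = 0.0165). TNC, tenascin C, measured 48.4 and 68.8 CPM under NC and 27.4 and 19.8 CPM under si-circ235-1 (log2 fold change -1.31, adjusted p = 0.0151).

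Of 15 genes of plasminogen activation and metalloproteases, PLAUR and MMP3 rose and TIMP2 fell. PLAUR, the urokinase receptor (chr19:43646095-43670547), measured 40.5 and 39.7 CPM in the NC libraries and 123 and 117 CPM in the si-circ235-1 libraries. Replicates were close and the groups did not overlap, a 2.99-fold rise (log2 fold change 1.58, SE 0.19, adjusted p = 0.00593). MMP3, stromelysin 1, measured 2.76 and 2.93 CPM under NC and 9.65 and 8.54 CPM under si-circ235-1 (log2 fold change 1.67, adjusted p = 0.0127). TIMP2, an inhibitor of metalloproteases, measured 51.4 and 60.1 CPM under NC and 29 and 26.2 CPM under si-circ235-1 (log2 fold change -1.01, adjusted p = 0.018). Without si-circ235-1 replicate 2 none of these calls was kept.

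No integrin subunit was called among 16 tested, the lowest p being that of ITGB2 (6.69 and 4.58 CPM under NC and 11.8 and 9.77 CPM under si-circ235-1, adjusted p = 0.078). None of 9 EMT factors and cadherins was called either. VIM, the intermediate filament protein vimentin, measured 846 and 665 CPM under NC and 1173 and 1499 CPM under si-circ235-1 (adjusted p = 0.0691), and it overlaps VIM-AS1. Of 12 keratins, KRT15 rose from 51.8 and 37.6 CPM under NC to 92.1 and 83 CPM under si-circ235-1 (log2 fold change 0.97, adjusted p = 0.0265), and KRT80 fell from 143 and 159 CPM under NC to 101 and 74.7 CPM under si-circ235-1 (log2 fold change -0.78, adjusted p = 0.0462). No gene was called among 13 tubulins, where TUBB6 had the lowest p (403 and 331 CPM under NC and 232 and 199.8 CPM under si-circ235-1, adjusted p = 0.0503).

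Signalling lists were read in the same way, against 2.24% called higher and 3.64% called lower over all genes. Of 23 genes of TGF-beta receptors, SMADs and targets, TGFBR1 and ID1 rose and ENG fell (median 0.32, 0.14 to 0.51 when single libraries were left out). ENG, the co-receptor endoglin, measured 132 and 108 CPM in the NC libraries and 51.6 and 50.7 CPM in the si-circ235-1 libraries. Both si-circ235-1 values were near 51 CPM and far below the NC values (log2 fold change -1.23, SE 0.18, adjusted p = 0.00938). TGFBR1, the type I receptor, measured 20.1 and 22.4 CPM under NC and 39.7 and 43.4 CPM under si-circ235-1 (log2 fold change 0.97, adjusted p = 0.0303), and ID1, an inhibitor of basic helix-loop-helix factors, measured 335 and 235 CPM under NC and 526 and 639.8 CPM under si-circ235-1 (log2 fold change 1.03, adjusted p = 0.0295).

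Among 18 genes from RAS to ERK, NRAS rose from 82 and 101 CPM under NC to 173 and 177 CPM under si-circ235-1 (log2 fold change 0.93, adjusted p = 0.0271), and SOS2, a RAS exchange factor, fell from 19.3 and 22.4 CPM under NC to 8.53 and 9.60 CPM under si-circ235-1 (log2 fold change -1.2, adjusted p = 0.0318). Of 9 EGFR family genes, the ligand gene EREG rose from 66.4 and 78 CPM under NC to 159 and 248 CPM under si-circ235-1 (log2 fold change 1.5, adjusted p = 0.0104). Of 24 ERK feedback and immediate early genes, ETV5, an ETS factor, was the only one called (73.2 and 83.4 CPM under NC and 121 and 136 CPM under si-circ235-1, adjusted p = 0.0427). Of 15 YAP and TEAD genes, F3, tissue factor, was the only one called (3.67 and 6.97 CPM under NC and 13.1 and 15.9 CPM under si-circ235-1, adjusted p = 0.0277), while the median of the list was -0.18.

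Histone genes formed the list with the most calls in 1 direction. Of 31 tested genes of replication-dependent histones, whose mRNAs mostly end in a stem-loop without a poly(A) tail, 8 rose and none fell, against 2.24% called higher over all genes. The median log2 fold change was 0.71, and it stayed between 0.51 and 0.85 when single libraries were left out. In 17 of the 31, both si-circ235-1 libraries were above both NC libraries, against 26.2% of all genes tested. HIST1H2BJ (current symbol H2BC11) measured 7.61 and 5.62 CPM in the NC libraries and 24.6 and 20.4 CPM in the si-circ235-1 libraries. Its si-circ235-1 values were both well above its NC values (log2 fold change 1.77, SE 0.26, adjusted p = 0.00887). HIST1H4H (H4C8) measured 6.23 and 5.99 CPM under NC and 15.9 and 17.8 CPM under si-circ235-1 (log2 fold change 1.46, adjusted p = 0.0127), and HIST1H2BD (H2BC5) measured 20.1 and 16.2 CPM under NC and 39.4 and 44 CPM under si-circ235-1 (log2 fold change 1.2, adjusted p = 0.0156). Oligo dT selection leaves only part of these transcripts, and its part in the result was not tested.

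Of 38 tested chromatin modifiers and remodelers, 4 fell, among them SETD1A, KMT2B and SETD1B, and none rose, against 3.64% called lower over all genes. The list median was -0.09 and changed sign between fits that left out single libraries (-0.14 to 0.03). SETD1A, SETD1B and KMT2B encode histone H3 lysine 4 methyltransferases. SETD1A measured 30.7 and 33.7 CPM under NC and 15 and 8.54 CPM under si-circ235-1 (log2 fold change -1.45, adjusted p = 0.0168), and KMT2B measured 48.3 and 58.1 CPM under NC and 31.6 and 21.9 CPM under si-circ235-1 (log2 fold change -0.99, adjusted p = 0.0297). The median GC content of the 38 transcripts was 51.9%, against 57.2% for all genes called lower.

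Cell cycle lists were also set against 2.24% called higher and 3.64% called lower over all genes. None of 47 DNA replication genes was called (median -0.07), with ORC6 at 86.1 and 101 CPM under NC and 57.4 and 60.4 CPM under si-circ235-1 (adjusted p = 0.055). Of 30 mitosis genes, ESPL1, which encodes separase, fell from 66.9 and 77.9 CPM under NC to 35 and 24.7 CPM under si-circ235-1 (log2 fold change -1.28, adjusted p = 0.0119), and AURKB, the kinase of the chromosomal passenger complex, fell from 162 and 132 CPM under NC to 87.5 and 74.6 CPM under si-circ235-1 (log2 fold change -0.86, adjusted p = 0.0328). The list median was 0.07. Of 21 G1 genes, CCND2, cyclin D2, rose from 7.08 and 7.76 CPM under NC to 14.7 and 14.3 CPM under si-circ235-1 (log2 fold change 0.97, adjusted p = 0.0442). CDKN1C, the kinase inhibitor p57, rose from 1.64 and 0.917 CPM under NC to 3.08 and 5.53 CPM under si-circ235-1 (log2 fold change 1.76, adjusted p = 0.0451). E2F2 fell from 30.4 and 28.6 CPM under NC to 17.3 and 14.2 CPM under si-circ235-1 (log2 fold change -0.9, adjusted p = 0.0369). Of 20 p53 targets, BTG2 and TIGAR rose and BAX, a mediator of apoptosis, fell from 175 and 129 CPM under NC to 78.1 and 76.9 CPM under si-circ235-1 (log2 fold change -0.97, adjusted p = 0.0268).

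Protein folding and degradation lists came next. Of 28 lysosome and autophagy genes, 4 rose and none fell, against 2.24% called higher over all genes (median 0.32, 0.14 to 0.45 when single libraries were left out). CTSL, the protease cathepsin L, measured 82 and 73.1 CPM in the NC libraries and 162 and 132 CPM in the si-circ235-1 libraries. Its groups did not overlap, and replicate 1 of si-circ235-1 was the higher (log2 fold change 0.93, SE 0.19, adjusted p = 0.0228). MAP1LC3B, an autophagosome protein, measured 336 and 367 CPM under NC and 607 and 703 CPM under si-circ235-1 (log2 fold change 0.9, adjusted p = 0.0318), and LAMP2, a lysosomal membrane protein, measured 119 and 145 CPM under NC and 225 and 231 CPM under si-circ235-1 (log2 fold change 0.79, adjusted p = 0.0349).

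Of 48 proteasome genes, PSMA4 and PSMB1 rose and PSMF1 fell (median 0.26). PSMB1, a subunit of the core particle, measured 286 and 215 CPM under NC and 403 and 539.5 CPM under si-circ235-1 (log2 fold change 0.91, adjusted p = 0.0442). PSMF1, an inhibitor of the proteasome, measured 212 and 186 CPM under NC and 77.5 and 57 CPM under si-circ235-1 (log2 fold change -1.56, adjusted p = 0.0073), so the inhibitor and the called subunits moved in opposite directions. The list median stayed between 0.2 and 0.38 when single libraries were left out. In 26 of the 48 genes both si-circ235-1 libraries were above both NC libraries, against 26.2% of all genes tested. Of 24 heat shock chaperones, DNAJA1 rose (291 and 308 CPM under NC and 492 and 486 CPM under si-circ235-1, adjusted p = 0.0472). Of 25 folding genes of the endoplasmic reticulum, DNAJC3, an inhibitor of the kinase PERK, rose from 16.1 and 18.3 CPM under NC to 30.8 and 33.6 CPM under si-circ235-1 (log2 fold change 0.9, adjusted p = 0.0362). HERPUD1, a component of degradation from the endoplasmic reticulum, rose from 79.8 and 90.3 CPM under NC to 144 and 149.7 CPM under si-circ235-1 (log2 fold change 0.79, adjusted p = 0.0377).

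In metabolic lists few genes were called. Of 32 genes of glycolysis and lactate transport, PDK3, a kinase that inhibits pyruvate dehydrogenase, was the only one called. It measured 8.27 and 6.78 CPM in the NC libraries and 19.4 and 22.8 CPM in the si-circ235-1 libraries. Both si-circ235-1 values were well above the NC values (log2 fold change 1.49, SE 0.27, adjusted p = 0.0156). The median of the list was -0.0018, and it was 0.17 with the GC and length trends removed. Of 27 hypoxia genes outside glycolysis, ERO1A, an oxidase of disulfide formation, rose from 42.6 and 52.1 CPM under NC to 112 and 137 CPM under si-circ235-1 (log2 fold change 1.39, adjusted p = 0.00747). ANGPTL4, a secreted inhibitor of lipoprotein lipase, rose from 86.5 and 63.1 CPM under NC to 195 and 169 CPM under si-circ235-1 (log2 fold change 1.28, adjusted p = 0.0109). The median of the hypoxia list was 0.23, and 0.15 to 0.35 when single libraries were left out. In 15 of its 27 genes both si-circ235-1 libraries were above both NC libraries, against 26.2% of all genes tested. In 4 both were below, against 28.8%.

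INSIG1, which retains the SREBP complex in the endoplasmic reticulum, was the only one of 24 cholesterol genes called. It measured 26.9 and 26.3 CPM in the NC libraries and 62.2 and 71.2 CPM in the si-circ235-1 libraries, without overlap (log2 fold change 1.33, SE 0.19, adjusted p = 0.00747). Of 13 fatty acid synthesis genes none was called, and SCD, stearoyl-CoA desaturase, measured 79.4 and 90.4 CPM under NC and 57.6 and 53.6 CPM under si-circ235-1 (adjusted p = 0.0653). Of 25 genes of the ATF4 response, CHAC1, an enzyme that degrades glutathione, fell from 42 and 28.4 CPM under NC to 16.6 and 14.3 CPM under si-circ235-1 (log2 fold change -1.18, adjusted p = 0.0277), against a list median of 0.24. None of 19 NRF2 genes was called. HMOX1, heme oxygenase 1, had an adjusted p of 0.0508 with 699 and 556 CPM under NC and 395 and 254 CPM under si-circ235-1.

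In mitochondrial lists most genes were not called. No gene was called among 76 nuclear-encoded respiratory chain subunits (median 0.13), 78 mitochondrial ribosomal proteins (median 0.08) or 13 mitochondrially encoded mRNAs (median 0.02), and each of these medians changed sign in at least 1 fit that left out a library. Of 29 import genes, TOMM40, the channel of the outer membrane translocase, fell. It measured 314 and 220.3 CPM in the NC libraries and 97.8 and 95.3 CPM in the si-circ235-1 libraries. Both si-circ235-1 values were under 100 CPM and both NC values above 200 CPM (log2 fold change -1.47, SE 0.21, adjusted p = 0.00776). TIMM8A rose from 28.2 and 18.6 CPM under NC to 38 and 57.2 CPM under si-circ235-1 (log2 fold change 1.02, adjusted p = 0.0472). TIMM23B was called lower, but it is nearly identical to TIMM23 and its reads may be shared.

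Among RNA and translation lists, none of 82 cytosolic ribosomal protein genes was called (median 0.18, -0.04 to 0.42 when single libraries were left out). The median of the ribosome biogenesis list was -0.19, with negative values in 26 of 35 genes, and NOP2, a methyltransferase of ribosomal RNA, was called, with 143 and 137 CPM under NC and 69.3 and 46.5 CPM under si-circ235-1 (log2 fold change -1.27, adjusted p = 0.0131). Of 23 small nucleolar RNA host genes, 20 had negative values (median -0.33) and SNHG4 was called lower, with 2.16 and 3.79 CPM under NC and 0.56 and 0.614 CPM under si-circ235-1 (log2 fold change -2.33, adjusted p = 0.0157). The median of the host genes stayed between -0.57 and -0.19 when single libraries were left out. Long noncoding genes as a class also had a negative median, -0.29, and 2.997% of them were called lower. Of 20 cytosolic aminoacyl-tRNA synthetases, SARS rose, and AARS (current symbol AARS1) and FARSB fell. AARS measured 308 and 291 CPM under NC and 165 and 134 CPM under si-circ235-1 (adjusted p = 0.0175).

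Of 41 spliceosome genes, SF3B4 and SF3A1, subunits of the U2 particle, fell. SF3B4 measured 145 and 139 CPM in the NC libraries and 52.2 and 38.2 CPM in the si-circ235-1 libraries. Its si-circ235-1 values were both far below its NC values (log2 fold change -1.65, SE 0.21, adjusted p = 0.00593). SF3A1 measured 111 and 127 CPM under NC and 64.3 and 54 CPM under si-circ235-1 (log2 fold change -1.01, adjusted p = 0.0157). None of 14 SR splicing factors was called (median -0.17). Of 15 genes of m6A methylation, CBLL1 and RBM15B, parts of the writer complex, fell and RBM15, another part, rose. CBLL1 measured 12.9 and 19.3 CPM under NC and 4.9 and 4.3 CPM under si-circ235-1 (log2 fold change -1.81, adjusted p = 0.00938), and RBM15 measured 19.2 and 18 CPM under NC and 39.2 and 33.9 CPM under si-circ235-1 (log2 fold change 0.97, adjusted p = 0.0268).

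Of 13 genes of Argonaute and microRNA processing, AGO2, the Argonaute that cleaves targets of siRNAs, rose from 70.4 and 76.6 CPM under NC to 125 and 128 CPM under si-circ235-1 (log2 fold change 0.79, adjusted p = 0.0304). DROSHA, which cuts primary microRNAs, fell from 58.6 and 66.7 CPM under NC to 41.8 and 34.8 CPM under si-circ235-1 (log2 fold change -0.71, adjusted p = 0.0484). No Elongator gene was called among 6. Of 210 zinc finger genes of chromosome 19, 3 rose and 5 fell (median 0.04). ZNF460 went from 0.131 and 0.0611 CPM under NC to 0.909 and 1.51 CPM under si-circ235-1 (adjusted p = 0.0244), and ZNF880 measured 9.64 and 7.33 CPM under NC and 3.57 and 3.07 CPM under si-circ235-1 (log2 fold change -1.36, adjusted p = 0.0271).

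For the lists without a call in edgeR, members at an unadjusted p and in DESeq2 were also counted. Over all 14415 genes tested, 3644 had an unadjusted p under 0.05 in edgeR, and DESeq2 called 1507. The list counts stand against these. At an unadjusted p under 0.05 there were 5 fatty acid synthesis genes, 5 cytosolic and 16 mitochondrial ribosomal protein genes, 11 respiratory chain subunits, 1 mitochondrially encoded mRNA and 8 DNA replication genes, and DESeq2 called 1, 0, 3, 1, 0 and 2 genes in the same lists. For interferon-stimulated genes, integrins, EMT factors, SR factors, NRF2 genes, Elongator, tubulins and cyclin Y with its kinases, the numbers at an unadjusted p under 0.05 were 2, 4, 3, 3, 6, 0, 3 and 2, and those called by DESeq2 0, 0, 1, 0, 4, 0, 2 and 2.

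**Figure D3:**
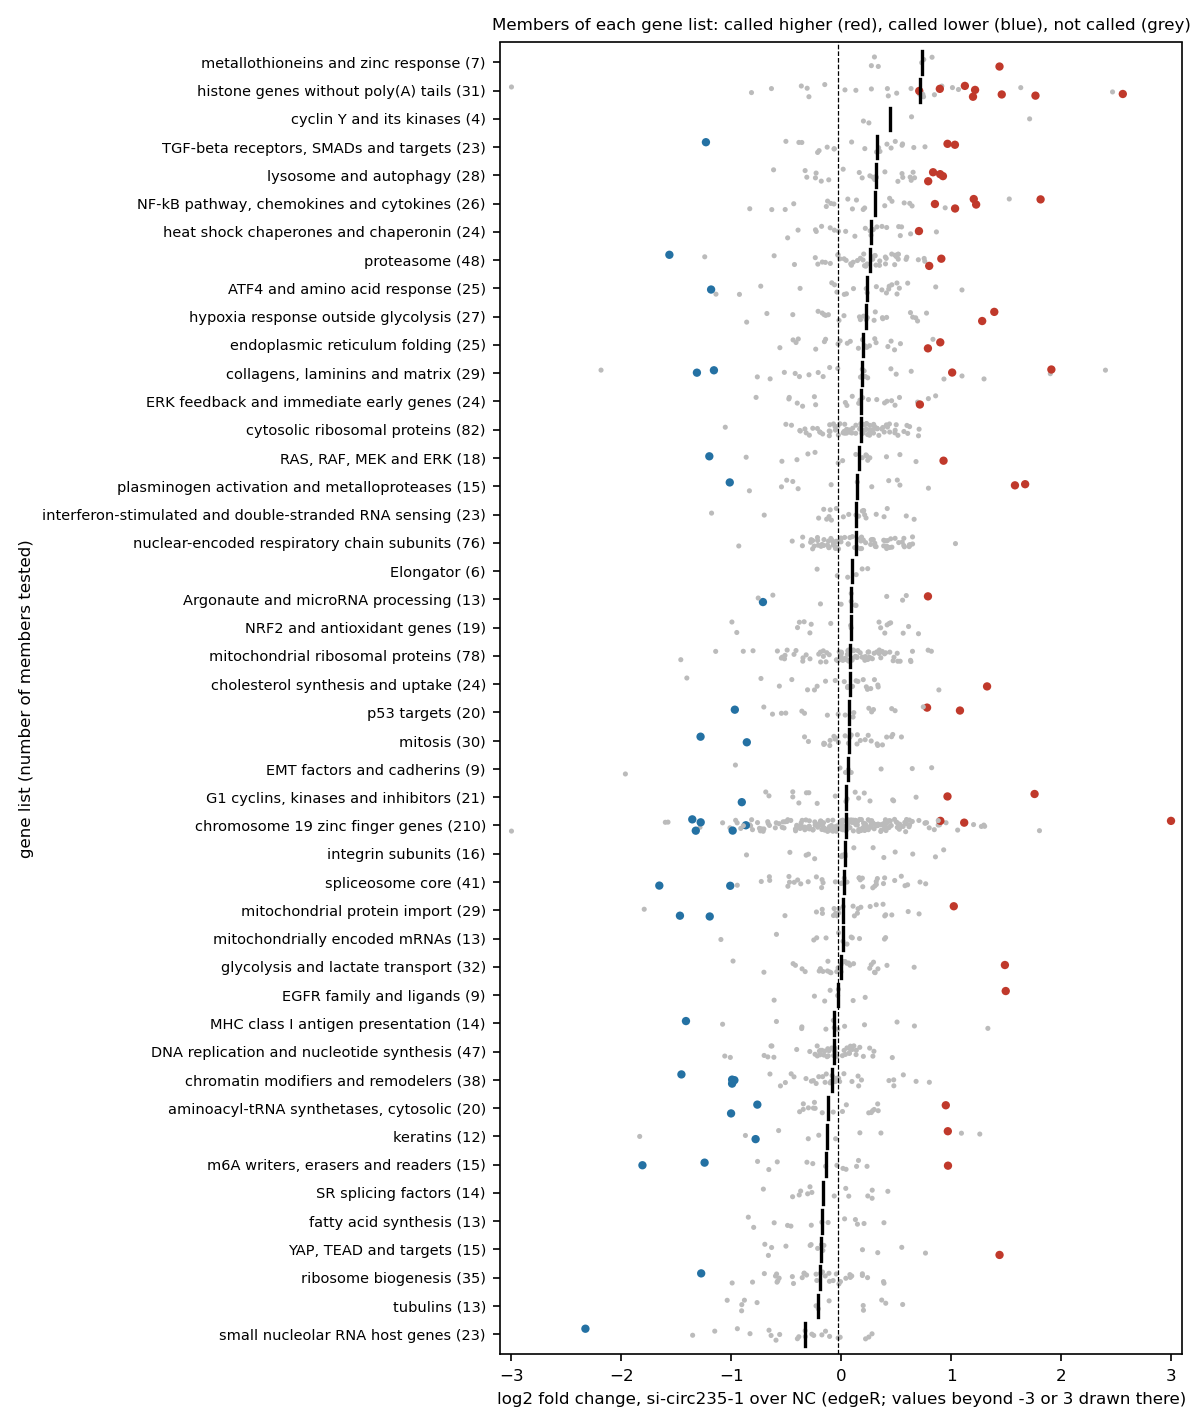
Log2 fold change (si-circ235-1 over NC, x axis) of every tested member of 46 gene lists (y axis), with called members in red (higher) or blue (lower), the list median as a black bar and the median of all genes, -0.03, as a dashed line. Metallothioneins (0.73) and histone genes (0.71) have the highest medians. Small nucleolar RNA host genes have the lowest (-0.33, against -0.29 over all long noncoding genes tested). In most lists grey, uncalled members outnumber the called ones.

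Fold changes moved with the GC content of the transcripts. The median GC content was 44.8% among genes called higher, 57.2% among genes called lower and 48.4% among all genes tested. With the genes split into 10 bins of equal size by GC content, 2.64% were called higher and 0.486% lower in the lowest bin, against 0.765% higher and 7.92% lower in the highest bin. Across 14386 genes the log2 fold change had a Pearson r of -0.209 with GC content, as a description without a test. Replicates of 1 group also differed along GC content, with r of -0.302 for the log2 ratio of NC replicate 2 to replicate 1 and -0.259 for the ratio within si-circ235-1. Transcript length moved little with the fold change (r = 0.0446 on the log2 scale of length). The part of GC content in the calls was not tested.

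**Figure D4:**
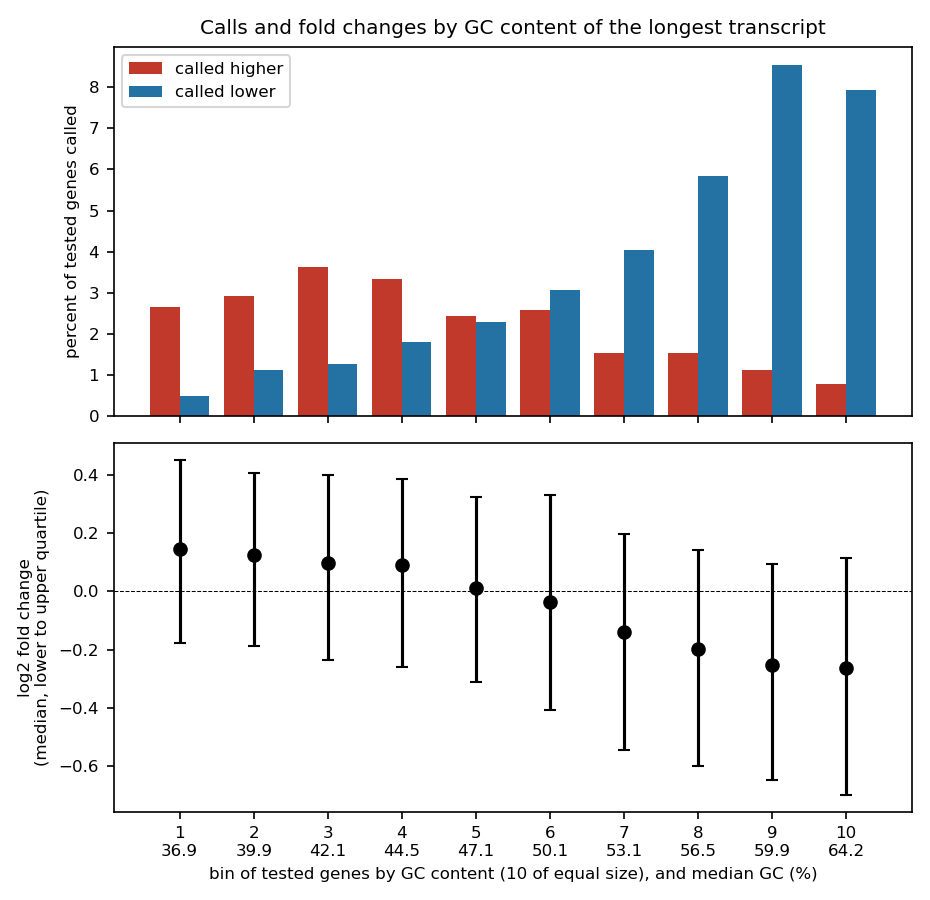
Share of tested genes called higher (red) or lower (blue) in each of 10 bins of GC content (top), and the median log2 fold change of each bin with its lower and upper quartile (bottom), with the bin and its median GC in percent on the x axis. Calls on the lower side rise from 0.486% to 7.92% from the lowest to the highest bin, while the median falls from 0.15 to -0.26.

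The 7-letter word CCCAGAG, which pairs with the seed of miR-330-5p, was counted in the longest 3' UTR of each gene, on the mRNA strand. It was present in 20.5% of 12145 genes with a 3' UTR, in 22.8% of 311 genes called higher and in 31.3% of 467 genes called lower. The word is itself rich in G and C. Among genes with a GC content above the median it was present in 25.4% of all genes, 28.8% of those called higher and 33.3% of those called lower. At or below the median, the shares were 15.6%, 19.8% and 20.3%. Median 3' UTR lengths were 1341 nucleotides for all genes, 1976 for those called higher and 1283 for those called lower. Above the median GC content these lengths were 881, 1033.5 and 1188, and at or below it 1951.5, 2396 and 2101.5. In both parts the genes called lower and those called higher had longer median 3' UTRs than all genes. The part of 3' UTR length in the shares was not tested. PAK4 held the word in a 3' UTR of 4237 nucleotides and CPNE1 in one of 210 nucleotides, while that of SLC16A3 held none. An exact word is a narrower measure than the paper's predictions, which placed a miR-330-5p site in each of these genes. In its reporter assay, miR-330-5p mimics lowered luciferase activity with the 3' UTR of each, including that of SLC16A3 (MCT4). The absence of the word therefore does not show the absence of a site. Of the 12 largest falls 3 held it (WASF2, ARHGDIA and PFDN6), and of the 12 largest rises 2 did (CERS6 and COL4A1).

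The replicates were compared directly. Across the 14415 genes, log2 CPM had a Pearson r of 0.982 between the NC libraries and 0.978 between the si-circ235-1 libraries. More than a 2-fold difference between replicates was seen in 5.64% of genes for NC and 7.76% for si-circ235-1, and in 1.08% and 1.09% of the 10269 genes with a mean of at least 5 CPM. The biological coefficient of variation was 0.181 for NC and 0.176 for si-circ235-1. Replicate counts differed by more than sampling noise, so no library was counted as a copy of another.

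To see the change in independent pairs, si-circ235-1 replicate 1 was set against NC replicate 1 and replicate 2 against replicate 2, pairs which share no library. The log2 fold changes of the pairs had a Pearson r of 0.415 and a Spearman correlation of 0.433 across genes, and 9557 genes (66.3%) had the same sign. Genes are not independent replicates, and no test was made. With a mean of at least 5 CPM, r was 0.540, and with the genes split into 3 groups by level it was, from the lowest to the highest, 0.323, 0.548 and 0.552. Pairing the libraries the other way gave 0.489.

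Replicate 2 of si-circ235-1 stood farther from NC. A total of 16.4% and 17.1% of genes differed more than 2-fold between it and NC replicates 1 and 2, against 11.7% and 10.8% for replicate 1. Among the 524 genes called lower, replicate 2 was farther from the NC mean in 418, with a median log2 difference of -1.29 against -0.999 in replicate 1. Among the 323 genes called higher it was farther in 226, with medians of 1.06 and 0.98. ARHGDIA, MBD6 and WASF2 are examples of falls that were deeper in replicate 2, while LAMC1, CD14 and CTSL were higher in replicate 1.

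**Figure D5:**
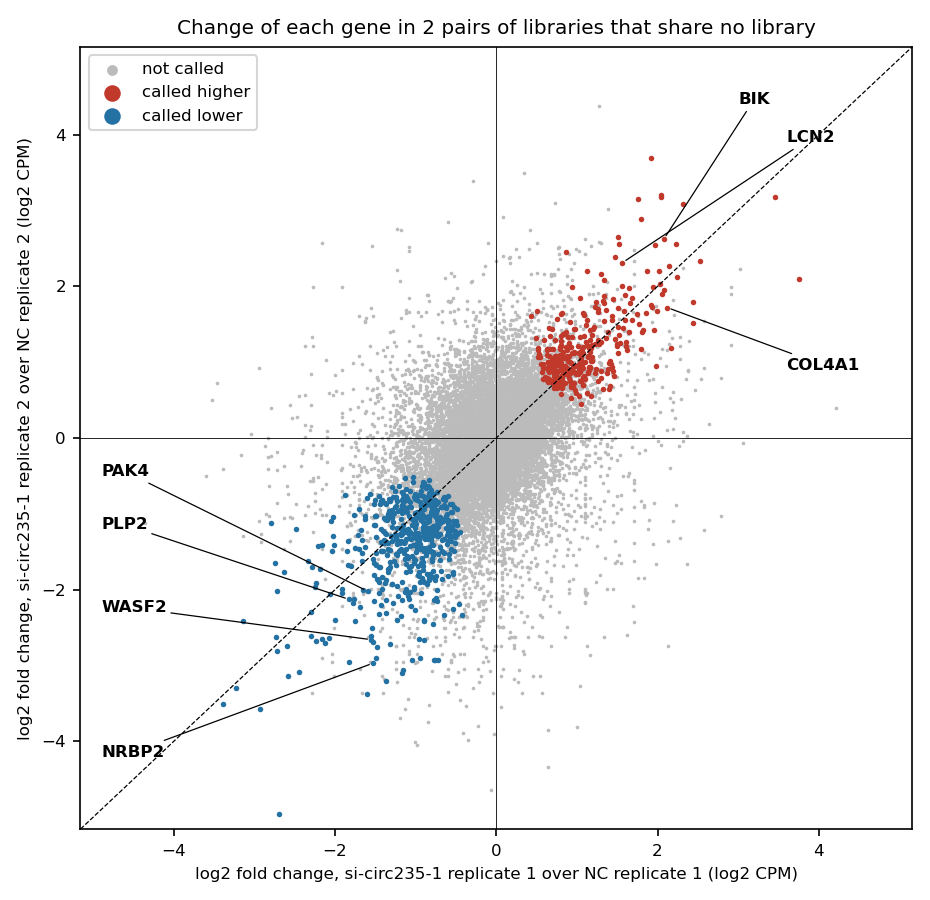
Log2 fold change of each gene in replicate 1 of si-circ235-1 over NC replicate 1 (x axis) and in replicate 2 over NC replicate 2 (y axis), on the log2 CPM scale, with called genes in red or blue and equality as a dashed line. Called genes lie along the diagonal, as the test selects them, while the grey cloud of all genes is broad (r = 0.415, 66.3% with the same sign).

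The second siRNA of the series, si-circ235-2, served to show where si-circ235-1 differed. The siRNAs were contrasted directly in the same edgeR fit, without comparison to a control library. The genes given had been chosen by their change between si-circ235-1 and NC. Because the contrast reuses the si-circ235-1 libraries, its adjusted p is not independent of that choice. In this contrast BIK, LCN2 and CCL2 were higher under si-circ235-1. BIK measured 2.18 and 2.06 CPM under si-circ235-2 (log2 difference of si-circ235-1 from si-circ235-2 2.35, adjusted p = 0.000594), LCN2 184 and 141 CPM (2.38, adjusted p = 0.000404) and CCL2 2.6 and 1.48 CPM (2.98, adjusted p = 0.000418). WASF2, FOXM1 and PLP2 were lower under si-circ235-1. WASF2 measured 196 and 209 CPM under si-circ235-2 (-3.19, adjusted p = 0.000379), FOXM1 81.5 and 79.2 CPM (-2.74, adjusted p = 0.000653) and PLP2 636 and 531 CPM (-1.71, adjusted p = 0.000555). Among BIK, LCN2, CCL2, WASF2, FOXM1 and PLP2, only WASF2 and CCL2 also differed between si-circ235-2 and NC at an adjusted p under 0.05. Under si-circ235-2, WASF2 was higher than under NC (83.8 and 102 CPM) and CCL2 lower (4.79 and 4.28 CPM). Their direct differences were thus larger than their log2 fold changes of si-circ235-1 from NC, -2.06 and 1.81. For COL4A1, CERS6 and TOMM40 a difference between the siRNAs was not detected, with log2 differences of -0.14, 0.15 and -0.33 and adjusted p of 0.58, 0.654 and 0.223.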

How the data were processed

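The deposited values were raw read counts per gene, made by the authors from T24 libraries of NC, si-circ235-1 and si-circ235-2, 2 biological replicates each per the labels. RNA was selected with oligo dT and sequenced without strand. The submitters' processing notes name FastQC, cutadapt, STAR and hg38, and for the counter, its annotation and all versions the sources used here give nothing. The 4 libraries compared held 15588108 to 19912893 counts, and 2 libraries per group limit the precision more than counting error does.

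Columns were matched to samples by name. Of 58288 identifiers, 58025 (99.5%) were found in GENCODE release 29 (GRCh38), the source of symbols, lengths, GC content (longest transcript) and 3' UTRs, which may differ from the authors' annotation. In R 4.3.3, edgeR 4.0.16 was fitted to all 6 libraries with 1 mean per condition, using its filterByExpr filter, TMM factors and quasi-likelihood test, and si-circ235-1 was contrasted with NC. P-values were Benjamini-Hochberg adjusted over 14415 genes, with a threshold of 0.05. SE is the log2 fold change divided by the root of F. CPM values of genes were scaled by TMM, and marker sums were not. Log2 CPM values had a prior count of 2. On simulated data the share of false calls was above the 0.05 that the adjusted p allows. Alternatives were DESeq2 1.42.0, its size factors, no TMM, other filters, a 1.5-fold threshold, splines along length and GC content (5 degrees of freedom), a replicate block, and fits without 1 library.

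The genes named were CCNY, the 12 largest rises and 12 largest falls among called protein-coding genes whose groups were apart and whose mean reached 5 CPM, the 4 most counted called genes and 3 called noncoding genes (1 CPM or more) of each direction, members of lowest p of 46 gene lists, and SLC16A3, PAK4 and CPNE1. Markers of 7 cell types were also listed. The members and lists were chosen with earlier results of these data known. Some listed genes are counted but not reported here by name.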

Additional observations from a re-analysis of the deposited data

How the results depend on the processing

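The number of called genes, 847 as reported, was 1507 with DESeq2 (703 higher, 804 lower), 1678 without a low-count filter (611 higher, 1067 lower), 1642 with the NC and si-circ235-1 libraries alone (704 higher, 938 lower), 59 against a 1.5-fold threshold (23 higher, 36 lower) and 1969 with the length and GC trends removed, 1189 of them higher. Without TMM factors 179 genes were called higher. Leaving out 1 library gave 0 to 1482 called genes, 0 to 573 higher and 0 to 909 lower. The lowest counts came without si-circ235-1 replicate 2 and the highest without si-circ235-2 replicate 2. A replicate block gave 937 called genes, 767 of them shared with the 847, and with the length and GC trends removed as well it gave 1294, 780 of them higher. The deviations of same-numbered libraries had correlations across genes of -0.0943 for NC and si-circ235-1, 0.149 for NC and si-circ235-2 and 0.139 for the siRNAs, and the numbers were not treated as pairs because not every correlation was above 0.1. The correlation of pair fold changes, 0.415, was 0.489 with the libraries paired by the other number and 0.540 with a mean of at least 5 CPM. The directions of the 136 named genes held under these settings except for 2 genes that were not called. SLC16A3, at -0.19 as reported, had a log2 fold change of 0.12 with the length and GC trends removed, 0.13 with the replicate block added, and -0.42 to 0.072 when 1 library was left out, and MT-ND4L, at -0.59, one of -1.1 to 0.25. Every named gene that was called as reported lost its call without si-circ235-1 replicate 2. The causes of these shifts were not tested.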
